A study of Homo sapiens with 20 samples.

Results

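T-ALL1 and KOPT-K are established human lines of acute lymphoblastic leukaemia of the T lineage (T-ALL), and the comparison described here is the difference in transcript levels between them. The arrays were chosen by their cell line labels, which gave 4 arrays of T-ALL1 and 4 of KOPT-K, 8 of the 20 arrays of the series. The series also holds CEM, DND41 and HPB-ALL, and cells of every line were kept for 16 h with a control peptide or with a peptide of the NEMO-binding domain (NBD). The NBD peptide blocks canonical NF-kB signalling by keeping the regulatory subunit of the IkB kinase away from its catalytic subunits. Each line and peptide has 2 arrays, and no culture without any peptide enters the comparison. The cell line field of the labels spells T-ALL1 as TALL-1.

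T-ALL arises from immature T cells. Normal thymocytes pass from progenitors that depend on Notch signals, through a cortical stage with CD1 molecules, RAG recombinases and CD4 with CD8, to mature T cells with a signalling T cell receptor. Many T-ALL cells switch on 1 of a small set of transcription factor genes, such as TAL1, LMO2, TLX1 or TLX3, and carry an active form of NOTCH1.

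Each array gives 1 intensity per probe set, taken here to the log2 scale, where a difference of 1 is a change of 2-fold. A gene was represented by its brightest probe set, and 12889 genes that reached the median of all values, a log2 intensity of 5.07, on at least 2 of the 8 arrays were tested. Every difference is T-ALL1 minus KOPT-K in log2 units from a limma fit with the peptide as covariate, ± its SE, over 4 arrays of each line. A gene is called higher in a line where the Benjamini-Hochberg adjusted p is below 0.05 and the difference is at least 2-fold. Nothing in the labels tells whether both arrays of a line and peptide stem from different cultures, and the p-values then measure only how these arrays vary, which may be technical. They compare 1 line with 1 line and not kinds of leukaemia. An array measures the RNA of all cells of a culture together, so fewer cells with a transcript and less of it per cell cannot be told apart.

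Mean intensities lay between 386.9 and 396.1 on the 8 arrays. Arrays of T-ALL1 correlated with each other at r = 0.986 to 0.997 across genes, those of KOPT-K at 0.994 to 0.997, and arrays of different lines at 0.873 to 0.887. Actin has separate 3' and 5' probe sets, whose log2 gap widens as RNA degrades. This gap was 3.16 and 2.05 on the control arrays of T-ALL1, against 0.74 and 1.14 on the KOPT-K control arrays. On the NBD arrays it was 1.07 and 0.99 in T-ALL1 and 0.97 and 0.73 in KOPT-K. The mean line difference in this measure was 0.93 (exact two-sided permutation test within peptide, p = 0.0556, the smallest that 36 assignments allow), and that of GAPDH was 0.15 (exact permutation p = 0.556). Calls are therefore also given for the 4 NBD arrays alone, where the actin values of the lines lie close together.

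Both lines expressed T cell genes. Of 10 T cell markers, 9 had a probe set of their own and all 9 were at or above the filter on every array of both lines. Their summed intensity was 13600 to 17600 in T-ALL1 and 33100 to 39300 in KOPT-K, with 6 called higher in KOPT-K and 0 higher in T-ALL1. Among markers of other cell types, those below the filter on all 8 arrays numbered 8 of 17 B cell markers, 16 of 20 myeloid markers, 6 of 16 erythroid and megakaryocyte markers and 11 of 22 fibroblast and epithelial markers. Summed intensities of the B cell markers were 496 to 546 in T-ALL1 and 933 to 1310 in KOPT-K, and those of the myeloid markers 3280 to 3960 and 2150 to 2450. For the erythroid markers they were 7150 to 8850 and 5790 to 8210, and for the fibroblast and epithelial markers 752 to 857 and 838 to 883. Called among these were CR2 and POU2AF1, at -4.31 ± 0.26 and -3.14 ± 0.09, CD72 at 1.07 ± 0.12, the neutrophil protease gene CTSG at 1.39 ± 0.13, and the matrix protein gene SPARC at -1.31 ± 0.18, which a pseudocount of 16 brought to -0.85 and below the 2-fold minimum. Of the 9 tested erythroid markers 0 were called in limma, and TFRC and ITGA2B were at 0.15 ± 0.08 and 0.18 ± 0.14 (limma adjusted p = 0.125 and 0.304). TFRC, the transferrin receptor gene, read 12.30 to 12.98 on the 8 arrays and made up most of the summed intensity of the erythroid markers. CD72 was not called without T-ALL1 control array 1 (0.97). The part of other cells in the results was not tested.

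The lines differed in many genes, and the largest differences were of genes high in KOPT-K and near the bottom of the scale in T-ALL1. Called higher in T-ALL1 were 910 genes, 7.06% of those tested, and 1083 genes, 8.4%, were called higher in KOPT-K, which makes 15.5% in either direction. At an adjusted p below 0.05 with no minimum size the shares were 31.8% and 24.7%, together 56.4%. The 4 arrays of one line did not overlap those of the other for 908 of the 910 and for all 1083, where 53.7% of all tested genes had no overlap. Differences past 4 log2 units numbered 42 in favour of T-ALL1 and 196 in favour of KOPT-K, and past 6 units 8 and 48. Of the genes called higher in KOPT-K, 360 were below the filter on all 4 T-ALL1 arrays, and of those called higher in T-ALL1, 168 were below it on all 4 KOPT-K arrays. The median difference over all tested genes was 0.049, the 5th percentile -1.64 and the 95th percentile 1.18.

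With the NBD arrays alone, 789 genes were called higher in T-ALL1 (6.12%) and 1113 higher in KOPT-K (8.64%). Of the calls from 8 arrays, 747 of those higher in T-ALL1 (82.1%) and 1029 of those higher in KOPT-K (95%) were called the same way, and 0 were called the opposite way. Every gene named below as called was also called in the NBD arrays alone, except where the text says otherwise. For the genes named by the size of their difference, the naming rule required that call.

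**Figure D1:**
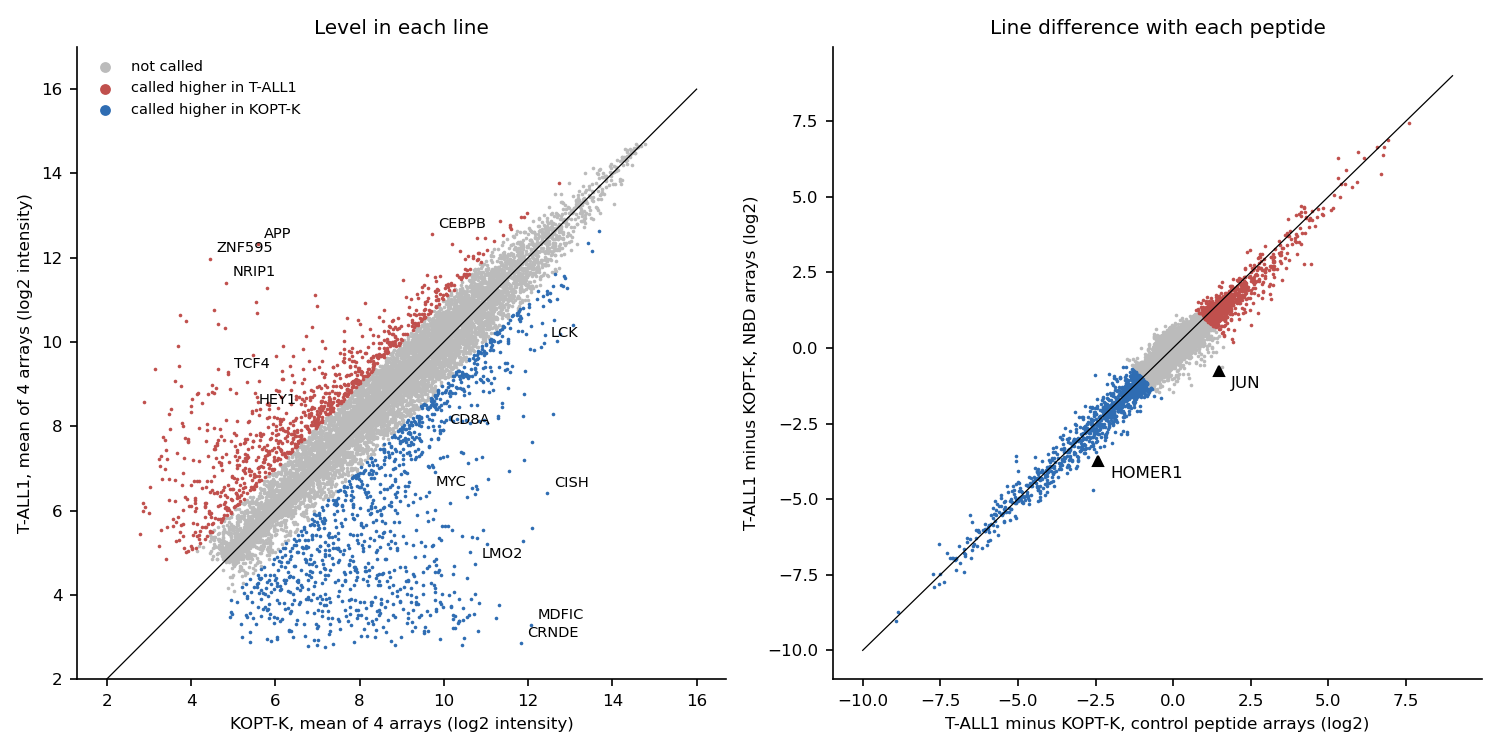
The left plot sets the mean log2 intensity of each tested gene in T-ALL1 (4 arrays) against that in KOPT-K (4 arrays), with the 910 genes called higher in T-ALL1 in red and the 1083 called higher in KOPT-K in blue; the right plot sets the line difference on the NBD arrays against that on the control arrays (2 arrays per line each). Blue points with KOPT-K levels of 8 to 12 reach down to T-ALL1 levels near 3, and on the right the points follow the diagonal, with JUN and HOMER1 marked by triangles.

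CRNDE, a long non-coding RNA, had the largest difference of the genes named by rule. Its log2 intensity was 2.91 and 2.99 on the control arrays and 2.71 and 2.78 on the NBD arrays of T-ALL1, and 11.93, 11.81, 11.74 and 11.82 in the same order in KOPT-K. All KOPT-K arrays were among the brighter values of the platform and all T-ALL1 arrays below the filter, a difference of -8.98 ± 0.07 (limma adjusted p = 2.32e-11). MDFIC, a MyoD family inhibitor domain gene, followed with 3.41, 2.94, 3.32 and 3.43 in T-ALL1 and 12.04, 12.04, 12.08 and 12.14 in KOPT-K, a difference of -8.80 ± 0.10 (limma adjusted p = 7.28e-11). In the other 3 lines, whose values appear to have been normalized in a separate run, CRNDE lay between 10.62 and 12 and MDFIC between 10.34 and 11.47, so T-ALL1 was the line without a level above the filter. No detection call was used here, and a value below the filter does not show that a transcript is absent.

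ZNF595, a zinc finger gene, had the largest difference in the other direction. It read 12.10 and 12.03 on the control arrays and 11.81 and 11.98 on the NBD arrays of T-ALL1, and 4.25, 4.67, 4.57 and 4.32 in KOPT-K, a difference of 7.53 ± 0.11 (limma adjusted p = 1.82e-10). The ranges of the other lines, 4.11 to 4.52 in CEM, 5.10 to 5.95 in DND41 and 3.65 to 4.22 in HPB-ALL, place T-ALL1 alone at a high level. ZNF667-AS1, the antisense partner of another zinc finger gene, was at 10.76, 10.65, 10.58 and 10.56 in T-ALL1 and at 3.63, 3.91, 3.64 and 3.75 in KOPT-K. The lines lay 6.90 ± 0.08 apart (limma adjusted p = 7.28e-11), and DND41 (9.04 to 9.24) and HPB-ALL (8.16 to 8.25) were on the side of T-ALL1. APP, which encodes the amyloid precursor protein, read 12.24, 12.47, 12.29 and 12.28 in T-ALL1 and 5.62, 5.49, 5.46 and 5.81 in KOPT-K. Its difference was 6.72 ± 0.10 (limma adjusted p = 1.82e-10), and the arrays of the other lines ran from 4.99 to 7.07.

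The rest of the 15 largest differences in each direction were of genes of varied function. Higher in KOPT-K were ANXA5 (-7.80), which binds phosphatidylserine, EGLN1 (-7.67), the prolyl hydroxylase that marks HIF for degradation, and PSAT1 (-7.55), an enzyme of serine synthesis. The chaperone gene CLGN (-7.50), the calcineurin regulator RCAN3 (-7.16) and the connexin gene GJC1 (-7.01) belonged to the same set. So did SLAIN1, ZNF711, TSPYL5, NRN1, HACD4, ZDHHC2 and the delta chain V segment TRDV3, at -7.61 to -7.0. Higher in T-ALL1 were B4GALT6 (6.61), which makes lactosylceramide, NRIP1 (6.58), a corepressor of nuclear receptors, and CYB5A (6.21), cytochrome b5. The list went on with the protease inhibitor gene SPINT2 (5.80), CTH (5.54), which makes cysteine from cystathionine, and the lysosomal protease gene LGMN (5.48). NAP1L2, LRIF1, SPART, UST, RIOX2 and TRIM44 lay between 5.41 and 6.22. In each of the 30 genes the arrays of the lines did not overlap, which the naming rule required. Limma adjusted p-values reached at most 5.09e-08, the value of RIOX2.

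**Figure D2:**
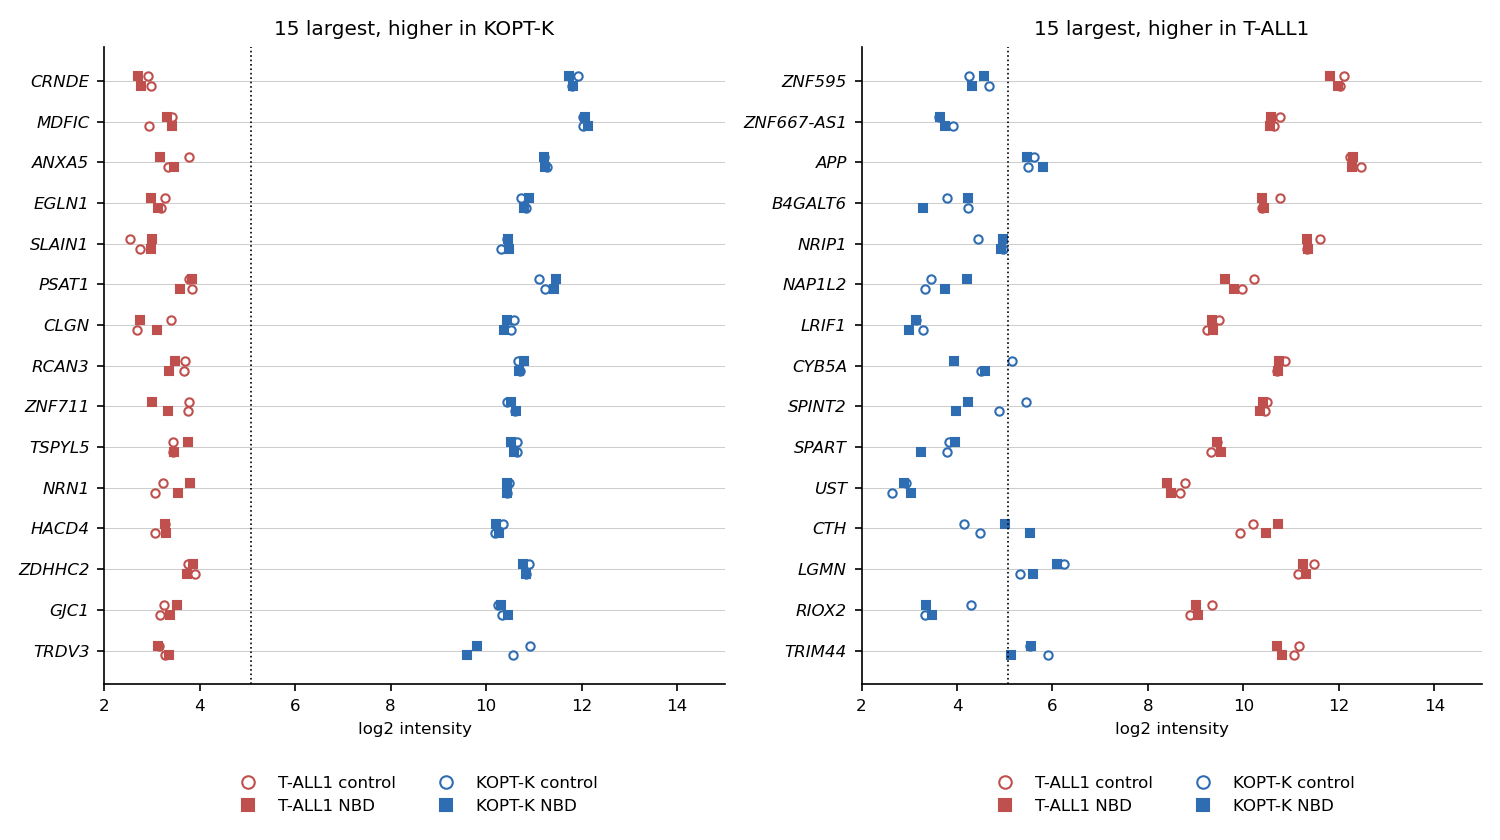
Log2 intensity on each of the 8 arrays for the 15 largest differences in each direction, with T-ALL1 in red and KOPT-K in blue, open circles for the control peptide and filled squares for NBD, and a dotted line at the filter value of 5.07. In the left panel every T-ALL1 array lies left of the dotted line and every KOPT-K array above 9, and the lines do not overlap in either panel.

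The levels of these genes in the other lines did not sort T-ALL1 and KOPT-K into fixed classes. Of the 15 higher in KOPT-K, 6 (CLGN, CRNDE, MDFIC, SLAIN1, ZDHHC2 and ZNF711) were at or above the filter on every array of CEM, DND41 and HPB-ALL, and TSPYL5 was below it on all of them. Of the 15 higher in T-ALL1, 6 (B4GALT6, LGMN, LRIF1, NRIP1, RIOX2 and TRIM44) were at or above the filter on every array of the other lines, which left KOPT-K as the low line. Of the 360 genes called higher in KOPT-K and below the filter on all T-ALL1 arrays, 358 were set against the other lines. Genes excluded from naming were not. Of the 358, 123 were at or above the filter on all arrays of all 3 other lines and 57 on none. For the 168 below it on all KOPT-K arrays these counts were 28 and 50.

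Promoters are shown for the genes with the largest differences in KOPT-K and for a pair of neighbours that were both high in T-ALL1, so that the windows can be compared by their letters. Each is the 250 bases before the start of the RefSeq gene, 5′ to 3′ on the gene's strand, build GRCh38.p14, with CG dinucleotides, the bases where human DNA is methylated, in capitals. CRNDE lies on the minus strand at chr16:54928887-54929136 and MDFIC on the plus strand at chr7:114921844-114922093. ZNF667 lies on the minus strand at chr19:56477346-56477595 and ZNF667-AS1 on the plus strand at chr19:56477624-56477873, and the start sites of this divergent pair are 529 bases apart.
CRNDE: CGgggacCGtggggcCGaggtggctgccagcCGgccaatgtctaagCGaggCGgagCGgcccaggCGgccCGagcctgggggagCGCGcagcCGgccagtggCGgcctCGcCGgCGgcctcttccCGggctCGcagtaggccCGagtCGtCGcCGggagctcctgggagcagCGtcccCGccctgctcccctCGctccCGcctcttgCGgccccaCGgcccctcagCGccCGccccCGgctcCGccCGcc
MDFIC: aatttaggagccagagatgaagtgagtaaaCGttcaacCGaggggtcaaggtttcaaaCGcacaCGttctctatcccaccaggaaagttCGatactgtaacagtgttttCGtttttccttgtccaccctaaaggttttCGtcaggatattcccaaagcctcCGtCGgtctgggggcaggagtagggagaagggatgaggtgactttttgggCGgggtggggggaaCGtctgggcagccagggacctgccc
ZNF667: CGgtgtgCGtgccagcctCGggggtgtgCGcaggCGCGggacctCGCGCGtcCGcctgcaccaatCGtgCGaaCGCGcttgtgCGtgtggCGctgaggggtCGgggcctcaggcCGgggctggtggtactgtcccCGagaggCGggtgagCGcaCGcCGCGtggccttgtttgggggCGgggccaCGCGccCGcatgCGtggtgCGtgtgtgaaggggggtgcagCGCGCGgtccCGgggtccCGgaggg
ZNF667-AS1: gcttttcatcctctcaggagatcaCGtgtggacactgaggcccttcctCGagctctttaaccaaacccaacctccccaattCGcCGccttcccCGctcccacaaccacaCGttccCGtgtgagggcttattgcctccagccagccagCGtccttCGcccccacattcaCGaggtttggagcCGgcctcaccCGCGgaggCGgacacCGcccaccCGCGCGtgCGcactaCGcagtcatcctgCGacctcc

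The windows of CRNDE and ZNF667 held 33 and 35 CG, and those of MDFIC and ZNF667-AS1 held 11 and 21. GGGCGG, read on both strands, was found 3 times before CRNDE and 1 time before each of the other 3, and TATAAA, also on both strands, in none of the 4. In windows of 300 bases, which add the 50 after the start, 95.9% of all promoters of the table had fewer CG than CRNDE, 94.3% fewer than ZNF667, 66.3% fewer than ZNF667-AS1 and 51.2% fewer than MDFIC. Of all 27305 RefSeq promoters, 44.6% held GGGCGG and 12% TATAAA. The 289 promoters found for genes called higher in KOPT-K and below the filter in T-ALL1 had a median of 24 CG, the 137 of the opposite kind a median of 23, and the 10363 of all tested genes 26. GGGCGG stood in 66.1%, 60.6% and 68.1% of these windows. A match is only a description of letters.

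Of the transcription factor genes that drive T-ALL, LMO2, MYC, ERG and MYB were called higher in KOPT-K, and 0 of the 13 tested members of that list were called higher in T-ALL1. LMO2, a bridging partner of TAL1 and LYL1, read 4.82 and 4.26 on the control arrays and 5.09 and 4.74 on the NBD arrays of T-ALL1, and 11.17, 10.96, 10.58 and 10.28 in KOPT-K. The arrays did not overlap and the difference was -6.02 ± 0.22 (limma adjusted p = 5.72e-08). CEM, at 7.66 to 8.22, was the other line above the filter. MYC, a growth regulator and Notch target, was at 6.88, 6.04, 6.37 and 6.48 in T-ALL1 and at 10.01, 10.02, 9.42 and 9.18 in KOPT-K, a difference of -3.21 ± 0.20 (9.27-fold; limma adjusted p = 1.51e-06). MYB and ERG differed by -2.19 ± 0.08 and -2.41 ± 0.11. TAL1 and LYL1, the usual partners of LMO2, were at -0.04 ± 0.17 and 0.03 ± 0.11 (limma adjusted p = 0.861 and 0.848), with arrays of the lines that overlapped between 5.62 and 6.68. For TAL1 this depended on the probe set. Of its 3 probe sets that passed the filter, the brightest, given here, and another were at -0.04 and -0.06, and the remaining one was called higher in KOPT-K, with means of 4.53 and 7.17 (-2.64, limma adjusted p = 1.18e-06). TLX1 and TLX3 were below the filter on all 8 arrays, at 4.47 to 4.77 and 3.26 to 3.84. The median difference of the list was -0.04. Over all tested genes 8.4% were called higher in KOPT-K and 7.06% higher in T-ALL1, the shares to set beside each list count here and below.

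Among 13 tested HOX genes and their cofactors 4 were called, all higher in KOPT-K, with a list median of -0.28. PBX3, a homeodomain cofactor of HOX proteins, read 3.96 to 4.58 in T-ALL1 and 9.24 to 9.51 in KOPT-K (-5.04 ± 0.14, limma adjusted p = 1.1e-08), and all 3 other lines lay at 8.57 or above. HOXC4, HOXB2 and HOXB7 differed by -2.35 ± 0.12, -1.51 ± 0.14 and -1.18 ± 0.11, and HOXB7 was not called with a pseudocount of 16 (-0.97). HOXC4 reached 8.16 to 8.33 in KOPT-K and 5.64 to 6.17 in T-ALL1, while CEM, DND41 and HPB-ALL stayed below the filter. HOXA9 was not analysed here.

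The regulators of T lineage fate went both ways, with 9 of 30 tested called higher in KOPT-K and 3 higher in T-ALL1, and a median of -0.54. TCF4, an E protein better known from B cells and plasmacytoid dendritic cells, was the largest in favour of T-ALL1, at 9.25, 9.28, 9.07 and 9.32 against 4.81, 5.24, 4.59 and 4.84 (4.36 ± 0.12, limma adjusted p = 7.53e-09). The arrays did not overlap, and CEM, DND41 and HPB-ALL, between 8.01 and 9.82, left KOPT-K as the low line. FOXO1 promotes quiescence and homing genes, and BCL6 is a transcriptional repressor active in follicular helper and germinal centre cells. They were higher in T-ALL1 by 2.16 ± 0.08 and 1.85 ± 0.09. ETS2 differed by -5.02 ± 0.06, RUNX2 by -3.45 ± 0.18 and LEF1, a partner of beta-catenin in thymocytes, by -2.44 ± 0.07. IKZF2 (-1.60), KLF2 (-1.42), EOMES (-1.10), BCL11B (-1.06), TOX (-1.05) and ID2 (-1.04) completed the 9, of which KLF2 (-0.94) missed the 2-fold minimum in the NBD arrays alone. ID2 differed by -0.40 on the control arrays and by -1.67 on the NBD arrays. GATA3, the regulator of early T cell commitment, was at -0.59 ± 0.11 and below that minimum.

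Genes of the T cell receptor complex and its signalling were higher in KOPT-K in 17 of 34 cases and in T-ALL1 in 0, with a median of -0.93. In the NBD arrays alone the counts were 16 and 0, without CD3G. LCK, the kinase that starts receptor signalling, read 10.10, 10.11, 9.70 and 9.96 in T-ALL1 and 12.46, 12.52, 12.35 and 12.20 in KOPT-K. It was thus bright in both lines, did not overlap and differed by -2.41 ± 0.08 (5.33-fold; limma adjusted p = 2.16e-08). The receptor chains differed less, with CD247 at -1.68 ± 0.06, TRBC1 at -1.09 ± 0.07, CD3G at -1.07 ± 0.12, CD3D at -1.04 ± 0.07 and CD3E, under the 2-fold minimum, at -0.45 ± 0.16 (limma adjusted p = 0.0421). Larger differences were seen for the costimulatory receptors ICOS (-5.32 ± 0.13) and CD28 (-2.33 ± 0.15) and for NFATC2 (-5.11 ± 0.11), the calcineurin-controlled transcription factor. ICOS lay at 5.06 to 5.84 in T-ALL1 and 10.64 to 10.72 in KOPT-K, and NFATC2 at 4.48 to 4.88 and 9.67 to 9.88. CD5, UBASH3A, RASGRP1, TRAT1, TXK, SH2D1A, PTPRC, LCP2 and PAG1 ran from -2.50 to -1.01. The adaptor LAT, the kinase ZAP70 and the pre-receptor chain PTCRA were not called, at -0.34 ± 0.09, -0.15 ± 0.12 and -0.03 ± 0.10.

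Thymocyte stage markers had the highest share of calls of the lists, 63%, with 16 of 27 higher in KOPT-K, 1 higher in T-ALL1 and a median of -1.35. CD1B, a lipid-presenting molecule of cortical thymocytes, was at 4.33, 4.74, 4.50 and 4.69 in T-ALL1 and at 9.73, 9.33, 8.78 and 8.55 in KOPT-K (-4.53 ± 0.20, limma adjusted p = 1.75e-07). Every T-ALL1 array was below the filter and every KOPT-K array well above it. CD1C, CD1E and CD1A differed by -2.62 ± 0.16, -2.29 ± 0.20 and -1.10 ± 0.15, the last below 2-fold in the NBD arrays alone (-0.90). CD8A read 8.14, 7.80, 7.82 and 7.87 in T-ALL1 and 9.97, 10.05, 10.02 and 9.84 in KOPT-K, a difference of -2.06 ± 0.09 with no overlap. CD8B was at -1.45 ± 0.23. CD4 did not differ by the test, at 5.75 to 6.16 and 6.10 to 6.33 (-0.24 ± 0.10, limma adjusted p = 0.0577). The recombination genes RAG1 and DNTT were at -1.66 ± 0.18 and -2.17 ± 0.12, and RAG1 was below the filter on all T-ALL1 arrays (4.27 to 4.49). MAL, a raft protein, and CCR9, the receptor that guides cells to the thymus and gut, were at -4.46 ± 0.12 and -3.96 ± 0.08. CD69, CCR7, CXCR4, CD52, CD99 and CD2 ran from -2.13 to -1.09. CD44 was the member higher in T-ALL1 (1.05 ± 0.12) and fell short of 2-fold in the NBD arrays (0.78). It was also not called without T-ALL1 control array 1 or KOPT-K control array 1. CD34, CD7 and IL7R were not called, at -0.01 ± 0.09, 0.18 ± 0.08 and -0.11 ± 0.09.

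Progenitor and myeloid-associated genes were mostly low in both lines, with 9 of 27 tested, 1 called in each direction and a median of -0.01. The called share was 22.2% of these 9, too few genes to set apart from the 15.5% of all tested genes. LMO2, given above, was the member higher in KOPT-K. CEBPB, a C/EBP transcription factor, was higher in T-ALL1, at 12.58, 12.29, 12.76 and 12.63 against 9.56, 9.84, 9.79 and 9.68 (2.85 ± 0.10, limma adjusted p = 4.36e-08). KIT, FLT3, MPO, CEBPA and SPI1 did not pass the filter.

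**Figure D3:**
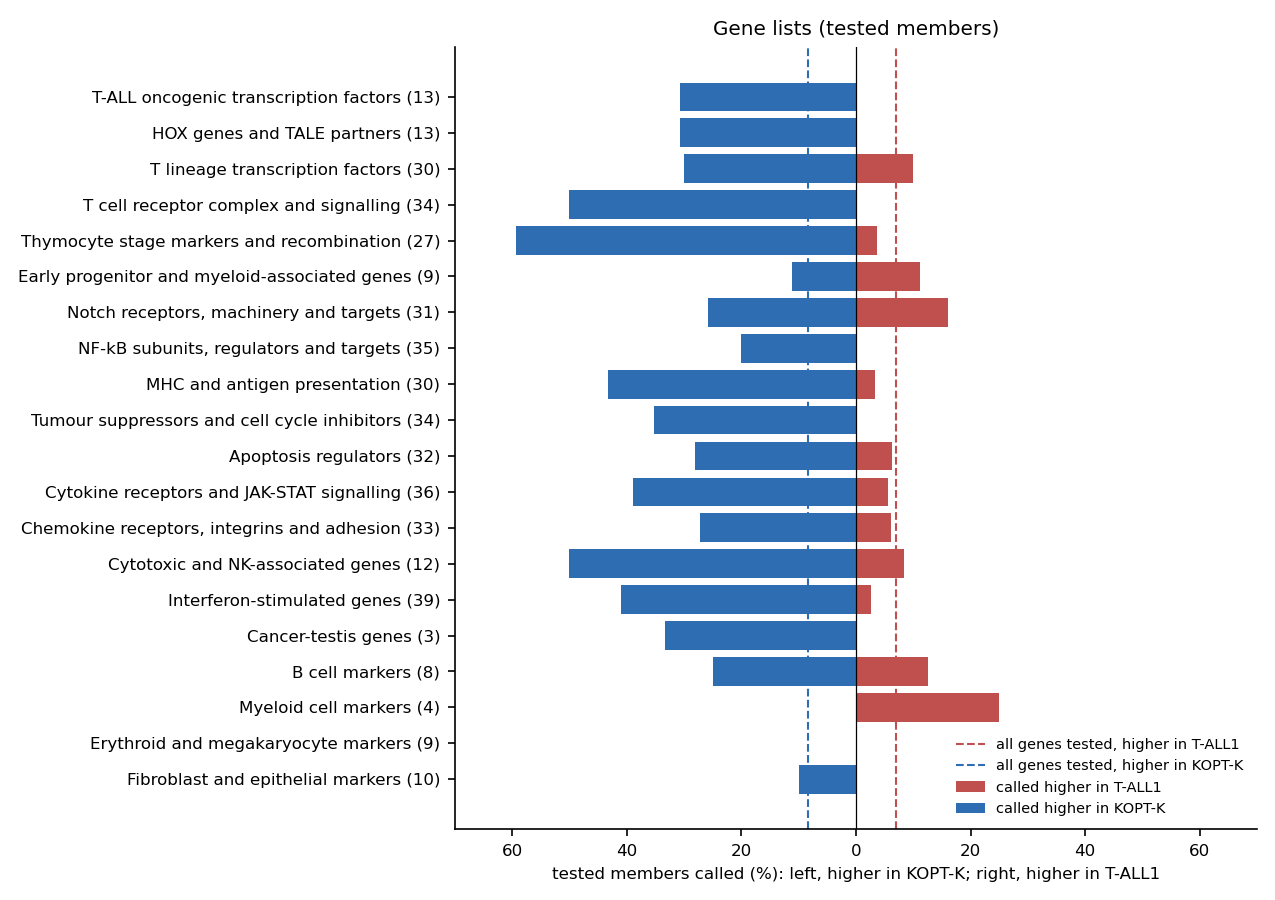
Share of the tested members of each gene list that was called higher in KOPT-K (blue, to the left) and higher in T-ALL1 (red, to the right), with the number tested in brackets and dashed lines at the shares over all tested genes, 8.4% and 7.06%. The blue bars of the T cell receptor and cytotoxic lists reach 50%, that of the thymocyte list goes further, and the red bar of the Notch list is the longest among the lists of 10 or more tested genes.

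Notch pathway genes were called in both directions, 5 of 31 higher in T-ALL1 and 8 higher in KOPT-K, with a median of -0.04. NOTCH1 read 9.42, 9.48, 8.91 and 8.98 in T-ALL1 and 10.34, 10.59, 10.10 and 9.98 in KOPT-K, without overlap (-1.06 ± 0.08, limma adjusted p = 3.96e-06). Means over all probe sets of a gene gave -0.56 for NOTCH1 and 0.61 for NOTCH3, the other receptor called, and neither was then a call. NOTCH3, itself a target of the pathway, lay the other way at 7.85, 8.30, 7.33 and 7.54 against 7.0, 7.32, 6.06 and 5.88 (1.19 ± 0.15, limma adjusted p = 0.000164), and it was not called in the control arrays alone (0.91). HEY1, a repressor gene that Notch induces, was higher in T-ALL1, at 8.67, 8.72, 8.01 and 8.08 against 5.23, 5.72, 5.61 and 5.22 (2.92 ± 0.16, limma adjusted p = 6.73e-07), with no overlap. HES4, of the same family, was at 1.08 ± 0.15. HES1 was at 8.65, 8.09, 6.0 and 6.54 in T-ALL1 and 6.79, 6.90, 5.99 and 5.28 in KOPT-K, so its arrays overlapped. Its difference of 1.08 ± 0.24 (limma adjusted p = 0.00465) became 0.63 in the NBD arrays alone (limma adjusted p = 0.123) and was not a call there. It was also not called without T-ALL1 control array 1 or without KOPT-K control array 1. HES4 (0.92) and NUMB (1.03 ± 0.21 with 8 arrays, 0.50 with the NBD arrays) were lost there too, which left NOTCH3 and HEY1. Of the 5 calls, 3 were left without T-ALL1 control array 1 and 2 without KOPT-K control array 1. Other targets were higher in KOPT-K, among them the complement receptor gene CR2 (-4.31 ± 0.26), LZTFL1 (-2.43 ± 0.09), DTX1 (-1.32 ± 0.12) and SHQ1 (-1.14 ± 0.10, and -0.93 in the NBD arrays alone). FBXW7, the ubiquitin ligase subunit that clears activated NOTCH1 and MYC, was at 6.02 to 6.77 in T-ALL1 and 9.37 to 9.51 in KOPT-K (-3.13 ± 0.15, limma adjusted p = 2.66e-07). The other lines lay with KOPT-K, between 9.23 and 9.83. DTX3L and CCND3 were at -1.64 ± 0.09 and -1.49 ± 0.08, and NRARP and PTCRA were not called, at -0.04 ± 0.14 and -0.03 ± 0.10.

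The NF-kB list, which concerns the pathway that the NBD peptide blocks, had 7 of 35 tested members called higher in KOPT-K and 0 higher in T-ALL1, with a median of -0.26. These calls were 20% of the list, against 15.5% of all tested genes in either direction and 8.4% higher in KOPT-K. TBK1, a kinase related to the IkB kinases, was at 4.42, 3.43, 4.55 and 4.27 in T-ALL1 and at 9.10, 9.39, 9.19 and 9.20 in KOPT-K (-5.05 ± 0.21, limma adjusted p = 1.28e-07). Its arrays did not overlap, and the other 3 lines lay between 7.14 and 10.19. The cytokine genes TNFSF10, TNF, LTA and LTB were at -4.56 ± 0.16, -3.34 ± 0.19, -2.22 ± 0.07 and -1.16 ± 0.10, and BCL2A1, a survival gene of the BCL2 family, at -2.18 ± 0.22. CYLD, a deubiquitinase that restrains the pathway, differed by -1.04 ± 0.08 and missed 2-fold in the control arrays alone (-0.90), with the mean of all its probe sets (-0.76) and with a pseudocount of 16 (-0.96). It also missed it without T-ALL1 NBD array 1 or KOPT-K NBD array 2. The inhibitors NFKBIA and TNFAIP3 were at 0.36 ± 0.10 and -0.75 ± 0.12, under the 2-fold minimum with 8 arrays, and TNFAIP3 was at -1.05 and called in the NBD arrays alone. A dimmer probe set of TNFAIP3 was called with 8 arrays (-1.24, limma adjusted p = 0.00185). The subunits NFKB1, RELA and REL were at -0.79 ± 0.11, 0.02 ± 0.13 and 0.15 ± 0.07, and the kinase genes IKBKB, CHUK and IKBKG at -0.61 ± 0.10, -0.09 ± 0.09 and -0.40 ± 0.06, none of them called.

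CISH, SOCS1 and SOCS2, suppressors of cytokine signalling, had the largest differences of that list, and SOCS3, of the same family, was not called. CISH, which STAT5 induces, read 6.21, 6.55, 6.43 and 6.45 in T-ALL1 and 12.23, 12.64, 12.58 and 12.40 in KOPT-K, a difference of -6.05 ± 0.11 (66.4-fold; limma adjusted p = 6.68e-10). SOCS1, a suppressor of JAK kinases, was at 5.93, 5.15, 5.32 and 5.74 against 10.80, 11.02, 11.08 and 10.84 (-5.40 ± 0.17), and SOCS2 at 8.12 to 8.55 against 12.50 to 12.67 (-4.30 ± 0.10). Neither pair of ranges overlapped. KOPT-K was also apart from the other lines in these genes, since no array of CEM, DND41 or HPB-ALL exceeded 8.12 for CISH or 7.94 for SOCS1. For SOCS2 DND41 reached 9.95 to 10.47, and CEM and HPB-ALL at most 5.05. In the whole list 14 of 36 members were called higher in KOPT-K and 2 higher in T-ALL1, with a median of -0.46. The kinase genes JAK3 and PIM1, the transcription factors STAT5A and STAT4, and the receptor chain IL2RB differed by -2.39 ± 0.21, -1.93 ± 0.08, -3.07 ± 0.16, -3.21 ± 0.11 and -2.11 ± 0.16. TGFBR2, a receptor for TGF-beta, was at 5.14 to 5.40 in T-ALL1 and 8.71 to 9.0 in KOPT-K (-3.63 ± 0.08), and the other lines were at 8.99 or above. The members higher in T-ALL1 were IFNGR2, an interferon gamma receptor chain (2.16 ± 0.08), and TGFBR3, a TGF-beta coreceptor (1.55 ± 0.11). STAT3, STAT5B, JAK1 and SOCS3 were not called, at -0.54 ± 0.14, -0.39 ± 0.08, 0.22 ± 0.06 and 0.03 ± 0.10.

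**Figure D4:**
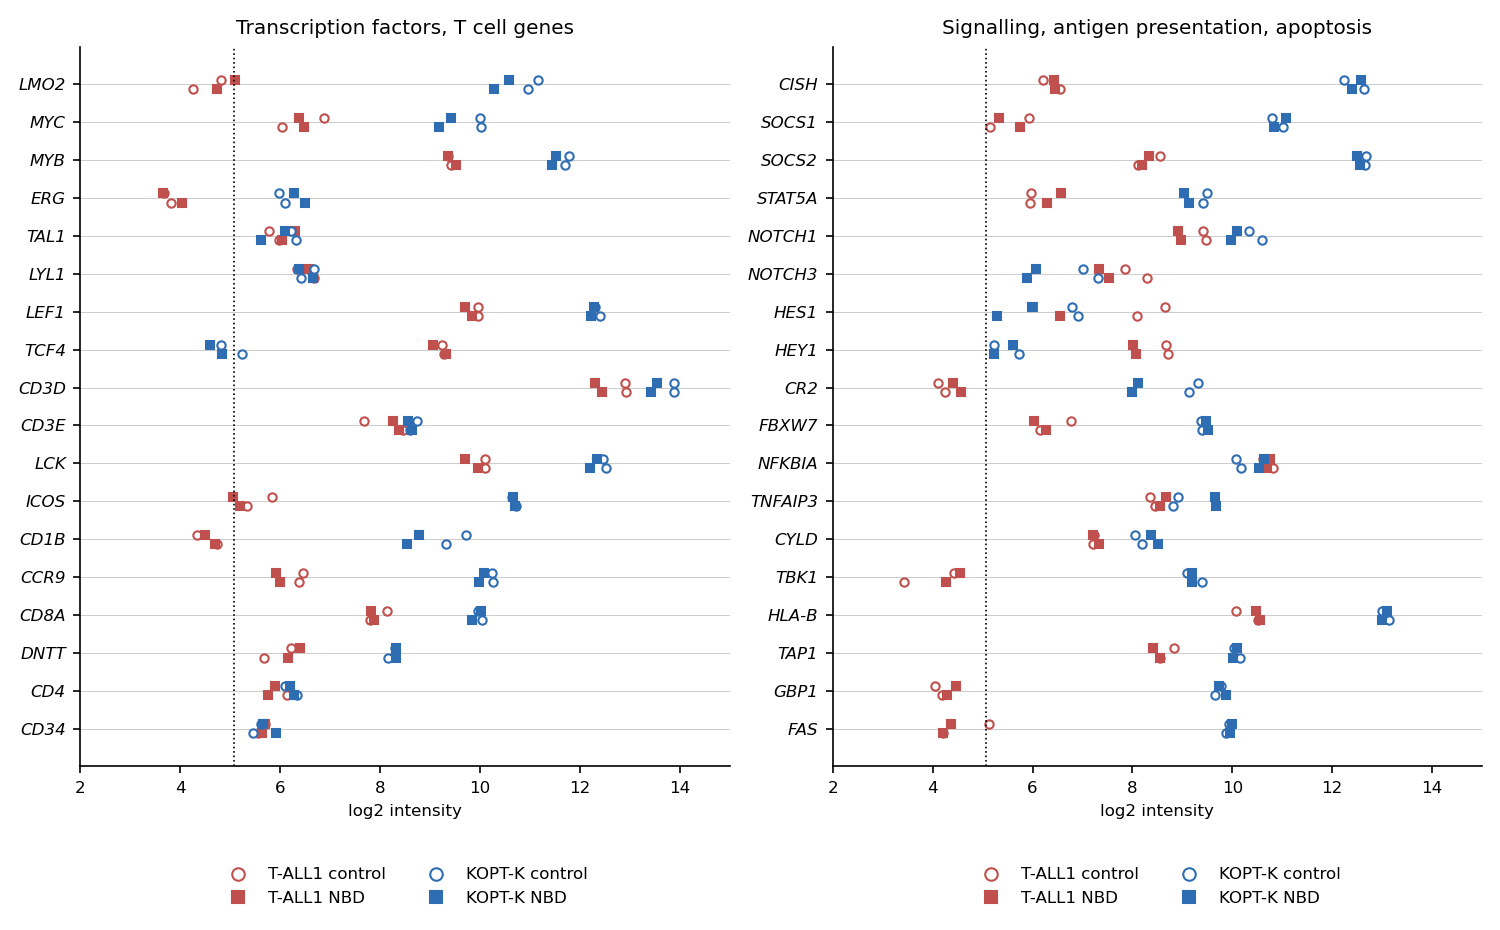
Log2 intensity on each of the 8 arrays for 36 genes of the lists, with T-ALL1 in red and KOPT-K in blue, open circles for control, filled squares for NBD and a dotted line at the filter value of 5.07. LYL1, CD4, CD34 and NFKBIA overlap between the lines, as do TAL1 in the brightest of its probe sets, the one plotted, and HES1, whose control arrays lie above its NBD arrays in each line, while LMO2, CISH, SOCS1, TBK1, GBP1 and FAS are wide apart.

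Interferon-stimulated genes were higher in KOPT-K in 16 of 39 cases, 15 of them in the NBD arrays too, and higher in T-ALL1 in 1, with a median of -0.71. GBP1, a guanylate-binding GTPase, was at 4.04 to 4.46 in T-ALL1 and 9.66 to 9.87 in KOPT-K (-5.52 ± 0.08, limma adjusted p = 1.9e-10), and RSAD2, the antiviral enzyme viperin, at 4.04 to 4.58 and 9.0 to 9.19 (-4.77 ± 0.13). Both gaps were wide, and the other lines were above the filter on every array for both genes. IFIT5, OAS3, IFIH1, USP18, OAS1 and OAS2 ran from -2.54 to -2.07, and PARP9, MX1, HERC5, TRIM22, IRF1, RIGI, XAF1 and IFI6 from -1.77 to -1.01, with IFI6 lost in the NBD arrays (-0.77). Common members such as ISG15 (-0.59), IFIT3 (-0.59), IFIT1 (0.28) and EIF2AK2 (0.0) were not called, and IRF8, a lineage factor of B and myeloid cells, was higher in T-ALL1 (1.18 ± 0.09).

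Antigen presentation genes had 13 of 30 members called higher in KOPT-K, all 13 also in the NBD arrays, and 1 higher in T-ALL1, with a median of -0.66. HLA-B, a classical class I heavy chain, read 10.08, 10.51, 10.48 and 10.55 in T-ALL1 and 12.99, 13.14, 13.09 and 13 in KOPT-K. The arrays did not overlap and differed by -2.65 ± 0.11 (6.27-fold; limma adjusted p = 9.97e-08). HLA-C and HLA-F were at -1.56 ± 0.10 and -1.40 ± 0.09, and since these class I probe sets may also bind transcripts of closely similar genes, which member differs is uncertain. B2M, the shared light chain, was at -0.33 ± 0.06 and below 2-fold. The immunoproteasome genes PSMB8, PSMB10 and PSMB9 differed by -2.30 ± 0.07, -2.12 ± 0.07 and -2.11 ± 0.08, the peptide transporter genes TAP1 and TAP2 by -1.48 ± 0.08 and -1.37 ± 0.08, and NLRC5, the class I transactivator, by -1.80 ± 0.14. TAPBPL and ERAP2 were at -1.55 ± 0.09 and -1.44 ± 0.13. ULBP2, a ligand of the NKG2D receptor, read 4.56, 3.53, 4.55 and 3.91 in T-ALL1 and 6.42, 6.80, 9.06 and 8.80 in KOPT-K, where the NBD arrays were the high ones (-3.63 ± 0.43). HLA-DMA, of the class II pathway, was at -3.50 ± 0.14, and HLA-DRA, HLA-DRB1 and CIITA did not pass the filter. RFXANK was the member higher in T-ALL1 (1.01 ± 0.07, and 0.95 in the NBD arrays alone), and it was not called without T-ALL1 control array 1 or KOPT-K control array 1. With the mean of all its probe sets TAP2 (-0.60) was not called.

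Death receptor genes went in opposite directions. FAS, a death receptor of activated T cells, was at 5.12, 4.20, 4.37 and 4.21 in T-ALL1 and at 9.94, 9.88, 10 and 9.95 in KOPT-K, which do not overlap (-5.46 ± 0.19, limma adjusted p = 3.25e-08). TNFRSF10B, a receptor for TRAIL, was at 8.62, 8.29, 8.58 and 8.56 in T-ALL1 and at 5.21, 5.79, 6.25 and 6.12 in KOPT-K (2.67 ± 0.16, limma adjusted p = 1.36e-06), and TNFRSF10D, a decoy receptor for TRAIL, differed by 2.29 ± 0.16. Means over all probe sets of TNFRSF10B (0.79) and of BCL2 (-0.44) were not called. The gene of the ligand itself, TNFSF10, was higher in KOPT-K, as given above. Of 32 tested apoptosis regulators 9 were called higher in KOPT-K and these 2 higher in T-ALL1, with the same counts in the NBD arrays and a median of -0.30. BCL2, the founding survival gene of its family, was at 8.37 to 8.59 and 10.01 to 10.19 (-1.63 ± 0.07), and BCL2L1 at -1.01 ± 0.07. The death-promoting members BIK, BCL2L11 and BID were at -4.67 ± 0.16, -1.34 ± 0.07 and -1.27 ± 0.09, so survival and death genes were both among the calls. CASP1 and CASP2 differed by -3.41 ± 0.10 and -1.20 ± 0.06, and MCL1, BAX and CASP9 were not called, at -0.59 ± 0.08, 0.69 ± 0.10 and 0.90 ± 0.09.

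Of 34 tested tumour suppressor and cell cycle genes 12 were called higher in KOPT-K, 10 of them in the NBD arrays too, and 0 higher in T-ALL1, with a median of -0.80. The list mixes inhibitors and drivers of growth, and cyclins CCND3 (-1.49 ± 0.08), CCNE2 (-1.71 ± 0.18) and CCNE1 (-1.12 ± 0.18) were among the calls, as was LEF1. FAT1, a giant cadherin, was at 3.74 to 3.96 in T-ALL1 and 9.86 to 9.95 in KOPT-K (-6.08 ± 0.07, limma adjusted p = 7.72e-11), and TET2, an enzyme that oxidises methylated cytosine, at 3.98 to 4.39 and 8.86 to 9.14 (-4.86 ± 0.11). T-ALL1 was below the filter on every array for both genes, and so was DND41, at 3.45 to 4.23 and 3.42 to 4.28. PHF6 and BCOR, genes of the X chromosome that are mutated in T-ALL, differed by -2.84 ± 0.10 and -2.55 ± 0.20. INPP5D, WT1, CDKN1A and PIK3R1 ran from -1.48 to -1.04, and CCNE1 (-0.64) and PIK3R1 (-1.0, just under the minimum before rounding) were lost in the NBD arrays. CDKN2A, which encodes p16 and ARF, and its neighbour MTAP, often deleted together in T-ALL, had levels in both lines. CDKN2A was at 8.67 to 8.94 in T-ALL1 and 7.87 to 8.07 in KOPT-K, and MTAP at 7.88 to 8.22 and 8.88 to 8.95, with differences of 0.83 ± 0.08 and -0.84 ± 0.08 that stayed under 2-fold. In CEM both were below the filter, at 3.77 to 4.41 and 3.94 to 4.31.

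Homing and adhesion genes had 9 of 33 tested members called higher in KOPT-K and 2 higher in T-ALL1, with a median of -0.54. SELPLG, the ligand of P-selectin, was at 6.43 to 6.65 in T-ALL1 and 10.62 to 10.98 in KOPT-K (-4.17 ± 0.08, limma adjusted p = 9.27e-10), and PECAM1 and the integrin gene ITGAV differed by -3.09 ± 0.11 and -3.07 ± 0.15. CXCR4, which holds T-ALL cells in marrow niches, was bright in both lines, at 10.84 to 11.61 and 12.85 to 13.07 (-1.65 ± 0.12). The laminin receptor gene ITGA6 was higher in T-ALL1, at 8.45 to 8.84 and 6.56 to 6.86 (1.91 ± 0.10), beside CD44, which left 1 call without T-ALL1 control array 1 or KOPT-K control array 1. Of 12 tested cytotoxic and NK cell genes 6 were called higher in KOPT-K and 1 higher in T-ALL1, with a median of -0.61 and the same counts in the NBD arrays. CD244, a receptor of the SLAM family, differed by -4.96 ± 0.16, GZMA, a granzyme, by -2.73 ± 0.19, PRF1, perforin, by -2.01 ± 0.08, NKG7 by -2.11 ± 0.09 and HCST by -1.23 ± 0.09. KLRF1, an NK cell lectin receptor, was at 5.19 to 5.98 in T-ALL1 and 3.11 to 3.40 in KOPT-K (2.24 ± 0.17), and it was below the filter in all 3 other lines. Cancer-testis genes were nearly all below the filter, with 3 of 28 tested and SYCP3, a protein of the meiotic chromosome axis, called higher in KOPT-K (-1.83 ± 0.19).

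Position on the chromosomes was not used to choose arrays or genes, and calls in one direction were found side by side. Runs of at least 3 neighbouring tested genes that were all called the same way numbered 50, of which 37 held 3 genes, 7 held 4, 5 held 5 and 1 held 6. Over all tested genes 7.06% were called higher in T-ALL1 and 8.4% higher in KOPT-K. How many runs calls in random order would give was not tested, and several runs held genes of related families. The longest was on the X chromosome with BEX2, TCEAL9, BEX3, TCEAL4, TCEAL3 and TCEAL1, small proteins of related families, all higher in KOPT-K. BEX3 read 5.43, 5.42, 5.23 and 5.06 in T-ALL1 and 11.89, 11.90, 11.82 and 11.85 in KOPT-K (-6.58 ± 0.07, limma adjusted p = 6.66e-11), and TCEAL9 was at 3.30 to 4.11 and 10.13 to 10.19 (-6.44 ± 0.16). The other lines were at 9.97 or above for both, so T-ALL1 was the low line. TCEAL4, TCEAL1, BEX2 and TCEAL3 differed by -4.34 ± 0.10, -3.63 ± 0.18, -1.95 ± 0.08 and -1.89 ± 0.10.

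The runs of 5 genes included DPP4, IFIH1, GCA, SCN9A and SCN7A on chromosome 2, which differed by -3.35, -2.22, -5.52, -4.97 and -2.87. Of these, SCN9A and SCN7A are sodium channel genes of the same family. In the class II region of chromosome 6, TAP2, PSMB8, PSMB8-AS1, TAP1 and PSMB9 lay between -2.30 and -1.37. On chromosome 12 OAS1, OAS3, OAS2, DTX1 and RASAL1 ran from -2.26 to -1.32, though RASAL1 (-0.85) was not called in the NBD arrays alone, and on chromosome 1 CD1A, CD1B, CD1C and CD1E were followed by PYHIN1 (-5.27). The run higher in T-ALL1 was on chromosome 19 and held the zinc finger genes ZNF667 (4.88 ± 0.14), ZNF471 (2.65 ± 0.29), ZFP28 (2.56 ± 0.09) and ZNF470 (1.05 ± 0.12) with ZNF667-AS1. CRNDE stood between the homeobox genes IRX3 (-4.63 ± 0.08) and IRX5 (-4.82 ± 0.10) on chromosome 16, both also higher in KOPT-K. The cytokine genes LTA, TNF and LTB formed a run of 3, as did CASP4, CASP1 and CARD16.

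Whole chromosomes differed in the balance of calls. On chromosome 13 the median difference over 215 tested genes was 0.547, 75.8% of them were above 0, and 23.3% were called higher in T-ALL1 against 7.06% over all genes. Chromosome 21, with 146 genes, had a median of 0.283 and 27.4% called higher in T-ALL1, and chromosome 14, with 435 genes, 0.322 and 14.9%. Chromosomes 18 and 20 followed with medians of 0.202 and 0.166. Chromosome 12 lay the other way, with a median of -0.228 over 684 genes, 30.4% above 0 and 13.3% called higher in KOPT-K against 8.4% over all genes. Chromosome 4 had 16.5% called higher in KOPT-K at a median of -0.047. Relative to the median of all genes, the shift of chromosome 13 ranged from 0.06 to 0.687 over the alternative settings, that of chromosome 21 from 0.057 to 0.58 and that of chromosome 12 from -0.383 to -0.1. The smallest shifts came without a filter on low values, where genes below it are counted too. These are medians over genes of expression, DNA copy number was not measured, and no test was made of them.

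**Figure D5:**
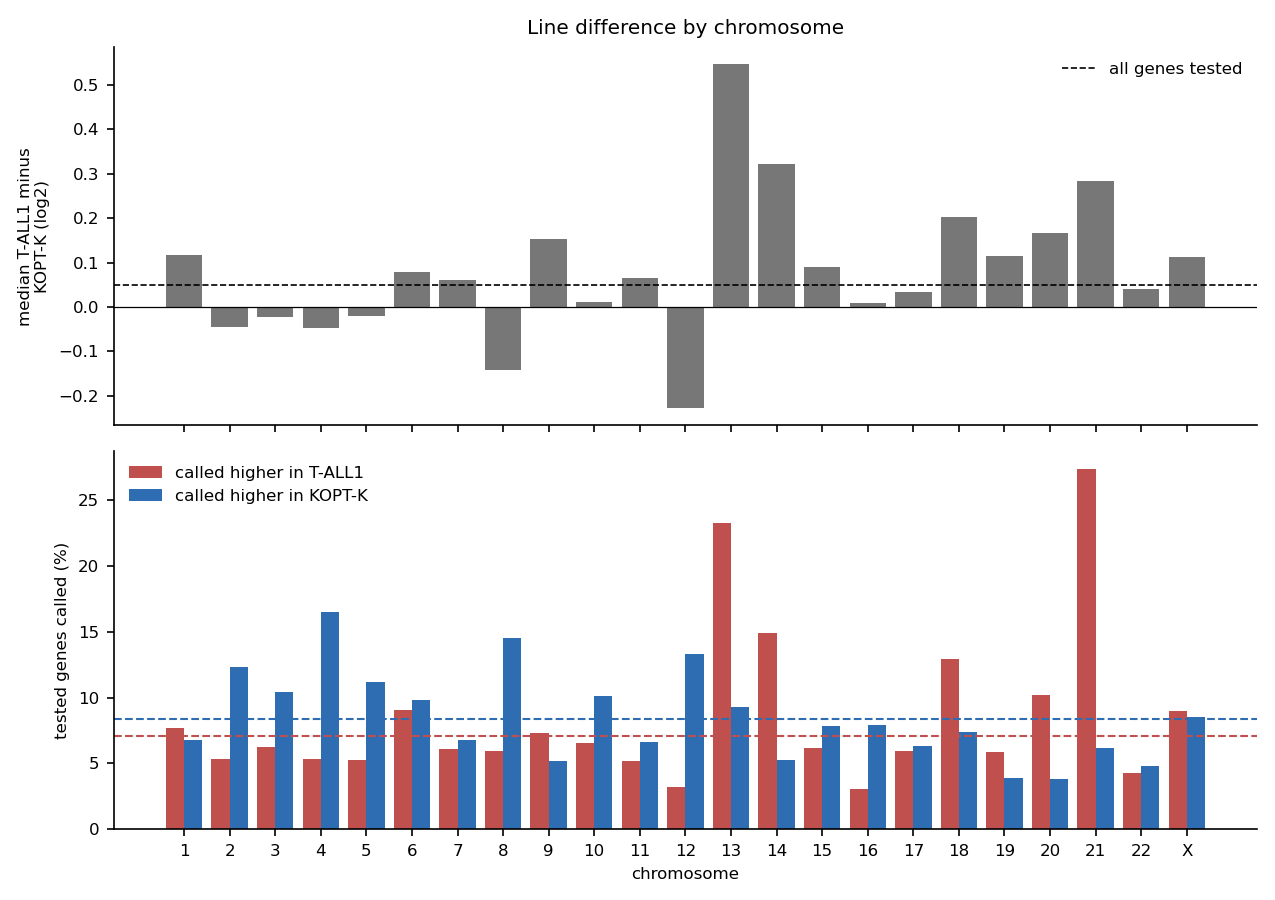
For each chromosome, the median T-ALL1 minus KOPT-K difference over its tested genes (top, log2, with the median of all genes as a dashed line) and the share of its tested genes called higher in T-ALL1 (red) and in KOPT-K (blue; bottom, with dashed lines at 7.06% and 8.4%). Chromosome 13 has the tallest grey bar at 0.547, chromosome 12 the lowest at -0.228, and chromosome 21 the tallest red bar at 27.4%.

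The line difference was seldom shown to depend on the peptide. With 2 arrays per line and peptide the test is weak, so a small count does not show that line differences were the same with both peptides. In a limma fit on the 4 group means, 2 of the 12889 genes (0.0155%) had a line difference that differed between the NBD and control arrays at an adjusted p below 0.05, and 1207 did at an unadjusted p below 0.05. JUN, a subunit of AP-1, read 8.41 and 8.10 on the control arrays and 9.38 and 9.34 on the NBD arrays of T-ALL1, and 6.83 and 6.72 on the control and 10.19 and 10.07 on the NBD arrays of KOPT-K. T-ALL1 was thus the higher line with the control peptide (1.47) and the lower one with NBD (-0.77), and the pooled difference of 0.35 ± 0.39 was not called (limma adjusted p = 0.49). The change of the line difference was -2.24 ± 0.17 (limma adjusted p = 0.0232). HOMER1, a synaptic scaffold gene, was at 6.24, 6.13, 4.75 and 4.74 in T-ALL1 and at 8.61, 8.61, 8.52 and 8.47 in KOPT-K. KOPT-K kept a like level with both peptides while T-ALL1 was lower with NBD, and the line difference changed by -1.33 ± 0.12 (limma adjusted p = 0.0482). The T-ALL1 values on the NBD arrays lay below the filter of 5.07. A dimmer probe set of HOMER1 that passed the filter had means of 3.50 in T-ALL1 and 9.48 in KOPT-K (-5.98), a larger line difference. GADD45A, CR2 and SLC2A3 came next, each with a limma adjusted p of 0.0505 for the dependence on the peptide. The count of 2 rested on single arrays, since it was 361 without T-ALL1 control array 2, 1 without T-ALL1 control array 1 and 0 without each of the other 6 arrays in turn.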

How the data were processed

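RNA of each culture was hybridised to human whole-genome expression arrays. The deposited values are linear intensity per probe set, which the authors made with RMA, per the submitters' processing notes; no version is given in the sources used here. Their log2 was used, without a pseudocount. Detection calls were not used. The intensity columns of T-ALL1 and KOPT-K carry more decimals and a higher mean than the other 12 arrays, which were therefore only described.

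Each gene was given by the probe set with 1 symbol and the highest mean, and genes reaching the median intensity of 33.5 (log2 5.07) on at least 2 of 8 arrays were tested, 12889 of 19775. The limma 3.58.1 model (R 4.3.3) held line and peptide. It was repeated on the NBD arrays alone, and the dependence on the peptide was fitted on group means. The scripts were checked on simulated data. A call is an adjusted p under 0.05 with at least 1 log2 unit. The number of arrays limits the precision.

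Named were the 15 largest differences in each direction with no overlap between lines, called in both fits, and members of the gene lists. Members and lists were chosen with earlier results of these data known. Alternatives covered normalization, filter, probe set choice, pseudocount, covariates, priors, thresholds and single arrays. Genes without a probe set of 1 symbol were left out. Y-linked genes were not named, placed on chromosomes or set against the other lines, but those passing the filter are in the genes tested and the counts of calls. Promoters are from RefSeq, GRCh38.p14.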

Additional observations from a re-analysis of the deposited data

Results flagged for a closer look

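The line difference of JUN, T-ALL1 minus KOPT-K, was 1.47 on the control arrays and -0.77 on the NBD arrays, and the difference between these, -2.24, passed the limma test of the dependence on the peptide (adjusted p = 0.0232). HOMER1 passed the same test with -1.33 (limma adjusted p = 0.0482), since its line difference was -2.43 on the control arrays and -3.75 on the NBD arrays. The T-ALL1 values of HOMER1 on the NBD arrays were below the filter. The part of RNA integrity on the T-ALL1 control arrays in the values of JUN and HOMER1 was not tested.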

How the results depend on the processing

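The 910 and 1083 calls were within 1.5 times of these counts under the settings run, with exceptions. Without the 2-fold minimum 4094 genes were higher in T-ALL1 and 3179 in KOPT-K, and a test against 1 log2 unit left 466 higher in T-ALL1. The share of calls higher in T-ALL1 was 45.7%, and 56.3% without the minimum. It was 39.8% with the actin covariate and 37.4% in the test against 1 log2 unit. Similar counts need not be the same genes. Of the calls tested again, 77.6% were the same with the mean of all probe sets and 62.5% in the test against 1 log2 unit. With the actin covariate 86.5% were the same, and with a pseudocount of 16 87.5%. The probe set of highest variance gave 2 opposite calls. With the replicate block the counts were again 910 and 1083, and so they were with the numbers crossed, an alternative chosen after seeing the data. Each line and peptide holds both numbers, so such a block leaves every line difference unchanged. The equal counts are therefore no check of the calls. Deviations of arrays with the same number correlated at -0.277 to 0.193 over all pairs of line and peptide groups. Between the lines with the same peptide the values were -0.182 and -0.109. The numbers were thus not taken to pair arrays. The 2 genes whose line difference depended on the peptide became 1 with quantile normalization, median centring, no filter or the replicate block, 4 with the mean of all probe sets, 7 with a stricter filter, 18 with a pseudocount of 16 and 0 with the probe set of highest variance. Leaving out 1 array at a time gave 0 to 361. The causes were not tested. Without both T-ALL1 control arrays, also chosen after seeing the data, 1776 of 1993 calls were the same. The KOPT-K control arrays then set only the peptide term. This fit thus repeats the differences of the NBD arrays alone, which also kept 1776 calls, and is no further check. Of 116 named genes called, 0 reversed. Calls were lost for 8 in the test against 1 log2 unit, 7 with the mean of all probe sets and 5 with the pseudocount. They were lost for 2 with the actin covariate, 2 in the control arrays alone and 1 in the NBD arrays alone. The probe set of highest variance added 2, TAL1 and TNFAIP3. The genes of largest difference were named for size, for no overlap and for calls in both fits. Their calls in the NBD arrays alone were thus set by the naming rule. The few losses among named genes are therefore no check of the other calls, for which the shares of all calls given above apply. Signals near the filter limit the values of the lower line.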
